A study of Mus musculus with 6 samples.

Results

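The genes of the proteasome were followed through whole-liver RNA of mice whose PD-1 receptor was blocked while steatohepatitis developed. Members were all genes with a symbol of Psma, Psmb, Psmc, Psmd, Psme, Psmf or Psmg followed by digits alone, which gave 47 of the 21512 genes in the table. Of these, 5 form the interferon-inducible or immune set (Psmb8, Psmb9, Psmb10, Psme1 and Psme2), and the other 42 are the standard subunits, activators and assembly factors. Psmb11, the thymus core subunit, was not analysed here. Psmc3ip and Psme2b carry further letters in their symbols and are no members.

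The anti-PD-1 group held 3 C57BL/6J mice given an antibody against PD-1 every 3 days, and the isotype control group 3 such mice given an isotype control antibody. All 6 had the same model of steatohepatitis with fibrosis, made by 12 weeks of high-fat feeding plus carbon tetrachloride, a hepatocyte toxin. Each library is 1 mouse, and age and sex are not given in the sources used here. The comparison asks how gene expression in the diseased liver differs when PD-1, an inhibitory receptor of activated T cells, is blocked.

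The proteasome is the protease that takes apart proteins tagged with ubiquitin. Its barrel-shaped core is built from rings of alpha subunits, which gate the entrance, and rings of beta subunits, of which a few cut the peptide chain. A regulatory cap of ATPases and non-ATPase subunits binds, unfolds and feeds in the tagged protein. Interferon-gamma induces 3 alternative cutting subunits, and cores that contain them are called immunoproteasomes. They favour peptides that fit MHC class I molecules. Hepatocytes mostly carry the standard form, whereas leukocytes are rich in the immune form.

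Values are deposited normalised read counts in units of CPM of a rescaled library. The libraries held 15528364 to 20779319 recovered reads, and 3 reads correspond to 0.144 to 0.2 units (counting error only). Hepatocyte markers such as Alb and Apoa1 were abundant throughout, and the 8 together summed to 83350 to 110800 units. Of 13990 genes tested, limma called 1 higher (0.00715%) and 0 lower (0%) at an adjusted p under 0.05. At an unadjusted p under 0.05 it placed 5.04% of genes higher and 6.24% lower. edgeR called 0 genes, with 5.68% higher and 5.95% lower at an unadjusted p under 0.05. DESeq2 called 1.08% of genes higher and 0.786% lower, with 6.25% and 5.18% at an unadjusted p under 0.05. Nothing in the labels says that the 3 mice of a group came from separate cages or days, so p-values measure the spread between these mice.

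Promoter windows of the inducible genes are shown first because Psmb8 and Psmb9 sit side by side with the peptide transporter gene Tap1 in the MHC, and because all 5 genes are described below as a set. The windows run from 250 bases before to 50 after the annotated start (RefSeq, GRCm38.p6), and 39 of 47 members matched an entry by symbol. The submitters' notes name GRCm39, so these coordinates belong to the older build and were not joined to the counts. Capitals mark a match, on either strand, to the gamma-activated element TTCNNNGAA, the interferon-stimulated element (GAAA and GAAA with any 2 bases between them), the antioxidant element TGACNNNGC or the CCAAT box. No printed match overlaps another.
Psmb8, chr17:34197945-34198244, plus strand: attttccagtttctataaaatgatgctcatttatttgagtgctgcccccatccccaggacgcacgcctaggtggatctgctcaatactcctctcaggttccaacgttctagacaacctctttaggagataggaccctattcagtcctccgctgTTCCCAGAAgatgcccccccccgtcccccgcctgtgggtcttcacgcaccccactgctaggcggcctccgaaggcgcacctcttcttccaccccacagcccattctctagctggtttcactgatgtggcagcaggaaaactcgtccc
Psmb9, chr17:34187281-34187580, minus strand: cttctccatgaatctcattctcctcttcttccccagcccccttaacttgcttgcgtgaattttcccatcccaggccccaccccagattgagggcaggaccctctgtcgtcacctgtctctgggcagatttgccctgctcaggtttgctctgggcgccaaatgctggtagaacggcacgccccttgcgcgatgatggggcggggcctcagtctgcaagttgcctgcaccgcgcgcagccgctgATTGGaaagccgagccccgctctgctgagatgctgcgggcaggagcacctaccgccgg
Psme1, chr14:55578244-55578543, plus strand: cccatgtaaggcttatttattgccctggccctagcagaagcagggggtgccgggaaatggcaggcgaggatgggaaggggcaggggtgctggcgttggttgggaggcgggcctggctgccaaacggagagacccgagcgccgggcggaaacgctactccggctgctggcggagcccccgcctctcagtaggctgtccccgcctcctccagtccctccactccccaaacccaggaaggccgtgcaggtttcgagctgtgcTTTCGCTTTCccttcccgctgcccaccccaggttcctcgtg

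The Psmb8 window held the gamma-activated element, a palindrome, 97 to 89 bases before the start. That motif occurs in 8.30% of all 32851 windows, and in 2 of the 34 other members with a window. The Psme1 window held the interferon-stimulated element, read on the opposite strand, 9 to 18 bases after the start, against 3.44% of all windows and 4 of the 34 other members. Psmb9 held a CCAAT box on the opposite strand, 8 to 4 bases before the start (37.4% of all windows). Its window shares 275 bases with that of Tap1, which is transcribed the other way. Psmb10 and Psme2 held none of the 4 motifs in these windows. The antioxidant element lay in 0 of the 5 inducible windows, in 6 of the 34 others and in 12.4% of all. A match is only a run of letters and does not show that a factor binds there.

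The 3 inducible cutting subunits had higher mean levels after anti-PD-1, with ratios of means of about 1.5 to 2.0. Their limma fold changes were about 1.4-fold to 1.9-fold, and the PA28 activator genes had smaller differences. None passed the test across all genes. In these bulk samples more cells of a type and more RNA per cell cannot be told apart.

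Psmb8 (ENSMUSG00000024338) encodes the subunit that takes the place of Psmb5, the chymotrypsin-like site. It was at 45.6, 18.98 and 25.2 units in anti-PD-1 replicates 1 to 3, against 17.2, 13.3 and 14.2 units in isotype control replicates 1 to 3. Every treated mouse lay above every control mouse, and anti-PD-1 replicate 1 was far above the rest. The log2 fold change was 0.89 ± 0.29 (SE, 95% interval 0.22 to 1.57), with a limma unadjusted p of 0.0157 and an adjusted p of 0.343. Over all settings the adjusted p ran from 0.0601 by DESeq2 to 0.681. The log2 fold change was 0.55 once anti-PD-1 replicate 1 was omitted.

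Psmb9 (ENSMUSG00000096727), which replaces Psmb6 at the caspase-like site, was at 32.6, 15.2 and 16.04 units after anti-PD-1, against 13.1, 13.5 and 9.40 in isotype controls. The groups again did not overlap, although anti-PD-1 replicate 2 lay close to the top of the control range. Its log2 fold change was 0.73 ± 0.29 (SE, 95% interval 0.05 to 1.41, limma adjusted p = 0.414). Omitting anti-PD-1 replicate 1 gave 0.39. Annotated exons of Psmb9 and Tap1 overlap on opposite strands. The kit keeps strand, per the labels' protocols, but whether counting used it is not given in the sources used here, so reads of this pair are uncertain. In the same way Psme1 overlaps Emc9, Psmb7 overlaps Nek6 and Psmd13 overlaps Sirt3. So do Psmc3 with Slc39a13, Psmd1 with Htr2b and Psma4 with AY074887, which makes 7 members with Psmb9.

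Psmb10 (ENSMUSG00000031897), the partner of the trypsin-like subunit Psmb7, was at 24.4, 12.9 and 18.3 units in anti-PD-1 livers and 13.2, 12.7 and 12.1 units in isotype control livers. Here the groups overlapped, because anti-PD-1 replicate 2 lay within the control range. Its log2 fold change of 0.49 ± 0.22 (SE, 95% interval -0.01 to 0.99) had a limma adjusted p of 0.449. Omitting anti-PD-1 replicate 1 gave 0.27.

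Psme1 (ENSMUSG00000022216) and Psme2 (ENSMUSG00000079197) encode the alpha and beta chains of PA28, a ring that opens the core without ATP. Psme1 was at 68.4, 47.3 and 55.7 units after anti-PD-1, against 61.0, 42.0 and 49.0 in isotype controls. Psme2 was at 65.5, 50.6 and 56.1 units after anti-PD-1, against 61.6, 39.6 and 54.4 in isotype controls. The groups overlapped for both genes, which followed the same order of mice within each group, with replicate 1 highest and replicate 2 lowest. Between mice of the same replicate number, which the labels do not give as pairs, the treated one was higher in 3 of 3 comparisons for each gene. The share of all genes tested with this pattern is not given here. With the replicate block the limma adjusted p was 0.39 for Psme1 (range over settings 0.39 to 0.949) and 0.497 for Psme2 (0.497 to 0.967). Their log2 fold changes were 0.17 (95% interval -0.24 to 0.58) and 0.16 (-0.25 to 0.57), with limma adjusted p of 0.745 and 0.761. Omitting the highest treated mouse, replicate 1, gave 0.04 for Psme1, and omitting isotype control replicate 2 gave -0.02 for Psme2. Psme2 shares 99.4% of 794 aligned bases with the retrogene Psme2b, which had 55, 24 and 20 reads after anti-PD-1 and 41, 16 and 18 in isotype controls, so reads of the pair are uncertain.

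**Figure D1:**
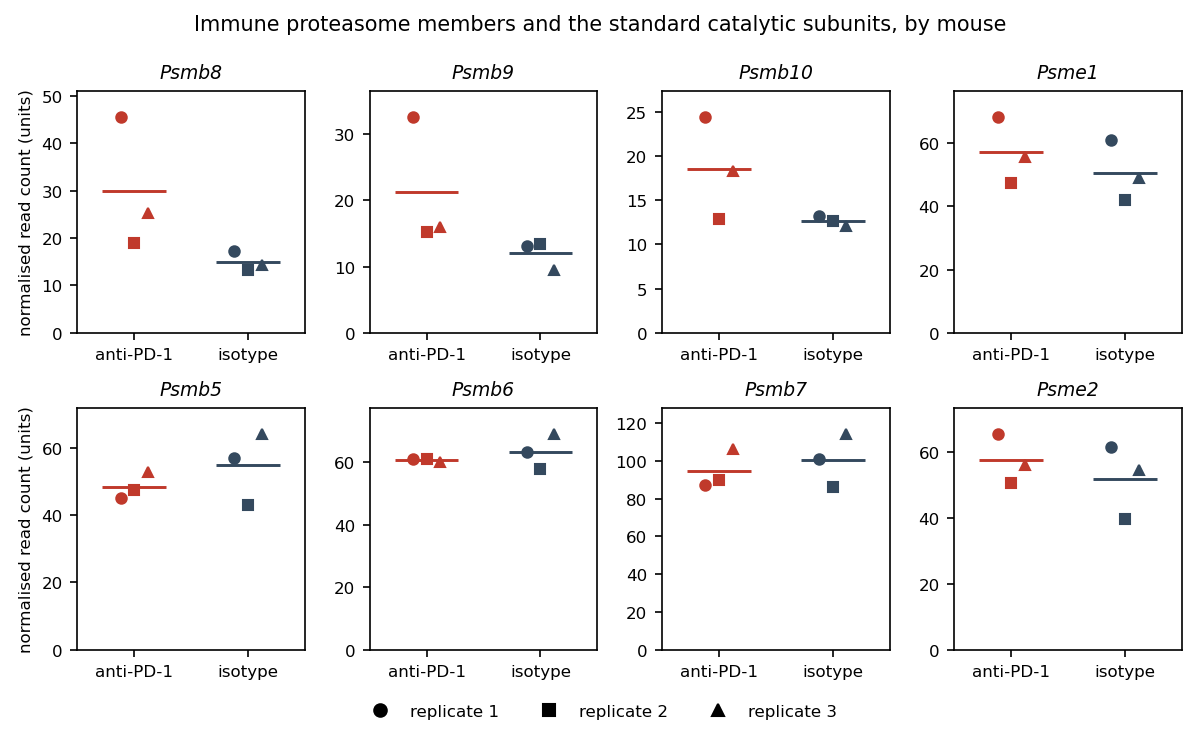
Normalised read counts (units, linear axes from 0) of the 5 inducible members and the 3 standard cutting subunits. Each symbol is a mouse, with anti-PD-1 left of isotype control, and bars are group means. Psmb8 and Psmb9 separate the groups, with anti-PD-1 replicate 1 at 45.6 and 32.6 units.

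Read as a set, 5 of 5 inducible members had positive log2 fold changes, against 50.5% of all genes tested. Their median was 0.49, beside 0.0027 over all genes. Groups did not overlap, with treated values higher, for 2 of the 5, a pattern seen in 7.13% of all genes tested. At an unadjusted p under 0.05 limma placed 2 of the 5 higher, against the 5.04% given above, and 0 of 5 passed after adjustment by limma, edgeR or DESeq2 (unadjusted, edgeR and DESeq2 placed 3 of the 5 higher). All 5 were highest in anti-PD-1 replicate 1, where 17.7% of all genes tested had their highest value. The median without that library was 0.27.

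Leukocyte markers were also high in that library. All 11 pan-leukocyte markers were highest there, and their sum was 634.8, 268.0 and 295.1 units in anti-PD-1 replicates 1 to 3, against 325.8, 250.6 and 219.4 in isotype controls. The 11 T cell markers summed to 52.4, 8.19 and 11.3 units after anti-PD-1, against 5.13, 5.09 and 4.07 in isotype controls. Only 2 of the 11, Cd3e and Cd8a, reached 1 unit in at least 3 libraries, and the others were under 1 unit in most libraries. Cd8a, the co-receptor of cytotoxic T cells, was at 11.7, 2.13 and 2.07 units after anti-PD-1 and 0.70, 0.49 and 0.35 in isotype controls. Its adjusted p was 0.275 by limma, 0.256 by edgeR and 0.000885 by DESeq2. The 6 monocyte markers summed to 84.9, 16.4 and 20.8 units after anti-PD-1 and 26.2, 19.1 and 19.6 in isotype controls, and the 6 B cell markers to 18.01, 6.39 and 9.52 units after anti-PD-1 and 14.1, 7.09 and 7.44 in isotype controls. The 7 markers of resident Kupffer cells summed to 204.0, 172.8 and 151.5 units after anti-PD-1 and 365.7, 157.0 and 204.8 in isotype controls, most of it from Cd5l and Clec4f. Taken gene by gene, 6 of the 7 had negative log2 fold changes (median -1.59). For 4 each treated mouse was below each control, a pattern seen in 9.98% of all genes tested. At a limma unadjusted p under 0.05, 5 of the 7 were lower. After adjustment DESeq2 called 3, the replicate block 1, and limma and edgeR 0. The scavenger receptor gene Cd163, which had the lowest log2 fold change of the 7, was at 1.44, 0.20 and 0.31 units after anti-PD-1 and 17.3, 6.601 and 6.39 in isotype controls. None of these markers was at 0 in any library. The part of these cell types in the values of the inducible subunits was not tested.

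Each inducible cutting subunit was next set against the standard subunit it replaces, a ratio that does not depend on scaling between libraries. Psmb8 over Psmb5 was 1.01, 0.400 and 0.478 in anti-PD-1 replicates 1 to 3, against 0.301, 0.309 and 0.222 in isotype controls. All treated mice were above all controls, and the mean log2 difference of 1.08 corresponds to 2.11-fold (1.59-fold with anti-PD-1 replicate 1 omitted). Psmb9 over Psmb6 was 0.534, 0.250 and 0.268 after anti-PD-1, against 0.207, 0.233 and 0.136 in isotype controls, also without overlap, at 1.76-fold (1.38-fold with that library omitted). Psmb10 over Psmb7 was 0.280, 0.143 and 0.172 after anti-PD-1, against 0.131, 0.147 and 0.105 in isotype controls, and here anti-PD-1 replicate 2 lay below isotype control replicate 2. In exact two-sided permutation tests over 3 against 3 mice the p-values were 0.1, 0.1 and 0.2 (0.15, 0.15 and 0.2 after Benjamini-Hochberg adjustment over the 3 ratios). The smallest p this design allows is 0.1.

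**Figure D2:**
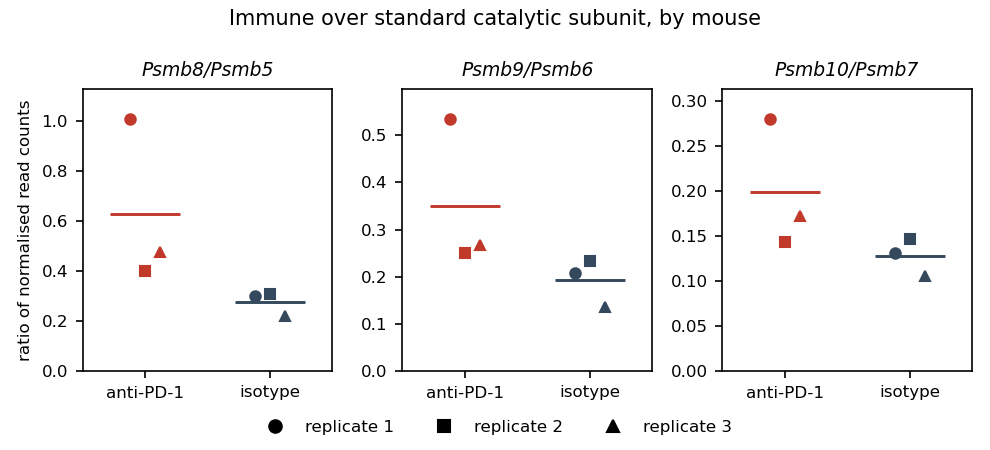
Ratio of normalised read counts of each inducible cutting subunit to the standard subunit it replaces (linear axes from 0). Each symbol is a mouse, with anti-PD-1 left of isotype control, and bars are group means. The first 2 ratios separate the groups, and for Psmb10 over Psmb7 anti-PD-1 replicate 2 (0.143) lies below the highest control (0.147).

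Levels of different genes can be set side by side only per length of transcript (longest principal coding transcript, GENCODE M21). Per kilobase, the share of Psmb8 in the sum of Psmb8 and Psmb5 averaged 24.9 ± 9.51% after anti-PD-1 and 13.2 ± 2.03% in isotype controls (SD, n = 3 each). For Psmb9 with Psmb6 these shares were 16.8 ± 6.20% after anti-PD-1 and 10.1 ± 2.42% in isotype controls, and for Psmb10 with Psmb7 14.8 ± 4.49% after anti-PD-1 and 10.1 ± 1.51%. By these lengths the standard subunit had the higher level of each pair in every library, the closest being Psmb8 at 35.8% in anti-PD-1 replicate 1. Before length scaling Psmb8 over Psmb5 was 1.01 in that library, so the order there rests on the transcripts chosen.

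The standard cutting subunits had small negative log2 fold changes. Psmb5 was at 45.2, 47.5 and 52.8 units after anti-PD-1, against 57.1, 43.1 and 64.2 in isotype controls (log2 fold change -0.16, 95% interval -0.52 to 0.20, limma adjusted p = 0.733). The value depended on single controls, at -0.32 with isotype control replicate 2 omitted (limma unadjusted p = 0.0396) and -0.04 with replicate 3 omitted. Psmb6 was at 61.0, 60.9 and 59.9 units in treated mice and 63.2, 57.8 and 69.1 units in controls (-0.06, -0.29 to 0.17, limma adjusted p = 0.85). Psmb7 was at 87.4, 90.1 and 106.2 units in treated mice and 101.2, 86.1 and 114.5 units in controls (-0.08, -0.39 to 0.22, limma adjusted p = 0.845). All treated values of these 3 genes lay inside the control range. All 7 standard beta subunits, which also include the structural Psmb1, Psmb2, Psmb3 and Psmb4, had negative log2 fold changes, between -0.16 and -0.04, and 0 of 7 had an unadjusted p under 0.05.

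Of the 8 alpha subunits 7 had negative log2 fold changes, the lowest being -0.18 for Psma4, with 0 of 8 at an unadjusted p under 0.05. The exception was Psma8, the testis form of Psma7. It was at 1.297, 2.80 and 1.29 units after anti-PD-1 and 2.21, 0.27 and 1.16 in isotype controls, so both groups held low and scattered values (log2 fold change 0.54, 95% interval -0.58 to 1.65). Its isotype control mean per kilobase, 0.717 units, was the lowest of the 47 members, while Psmb7 had the highest, 86.7 units.

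In the regulatory cap, 5 of 6 ATPases (Psmc1 to Psmc6) had negative log2 fold changes, between -0.15 for Psmc5 and 0.07 for Psmc6. Among 14 non-ATPase genes (Psmd1 to Psmd14) 10 were negative, and these held the 2 of the 42 standard members with an unadjusted p under 0.05 by limma. Psmd11, a lid subunit, was at 107.3, 114.9 and 111.9 units after anti-PD-1, against 141.6, 125.1 and 139.1 in isotype controls. The groups did not overlap, the log2 fold change was -0.28 ± 0.09 (SE, 95% interval -0.50 to -0.06) and the limma adjusted p 0.348. Omitting single libraries gave -0.33 to -0.24.

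Psmd5, an assembly chaperone of the cap that is absent from the finished particle, was at 30.6, 28.4 and 31.1 units in treated mice and 33.8, 36.7 and 36.5 units in controls (-0.25, 95% interval -0.47 to -0.02, limma adjusted p = 0.414). Psmd7, the lid partner of the deubiquitinase Psmd14, was at 41.5, 46.7 and 46.3 units in treated mice and 50.2, 48.5 and 54.4 units in controls (-0.19, -0.42 to 0.04, limma adjusted p = 0.525). Both genes were lower in each treated mouse than in any control. Psmd3, another lid subunit, leaned the other way without separating the groups, at 62.6, 77.8 and 74.6 units after anti-PD-1 and 61.3, 68.7 and 68.8 in isotype controls.

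Of the further activators, Psme3, which forms a nuclear relative of PA28, was at 52.4, 51.8 and 54.0 units after anti-PD-1 and 50.4, 51.3 and 48.9 in isotype controls. The groups did not overlap, but the difference was small (log2 fold change 0.07, 95% interval -0.13 to 0.27, limma adjusted p = 0.788). Psme4, the large single-chain activator of the nucleus, was at 175.7, 216.9 and 216.9 units after anti-PD-1 and 212.6, 193.6 and 202.1 in isotype controls (-0.0028, -0.27 to 0.26). Psmf1, a core-binding regulator, had a log2 fold change of 0.07. The core assembly chaperones Psmg1 to Psmg4 ranged from -0.21 for Psmg1 to 0.26 for Psmg4, which was at 2.64, 1.46 and 2.59 units after anti-PD-1 and 1.35, 1.41 and 2.66 in isotype controls.

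**Figure D3:**
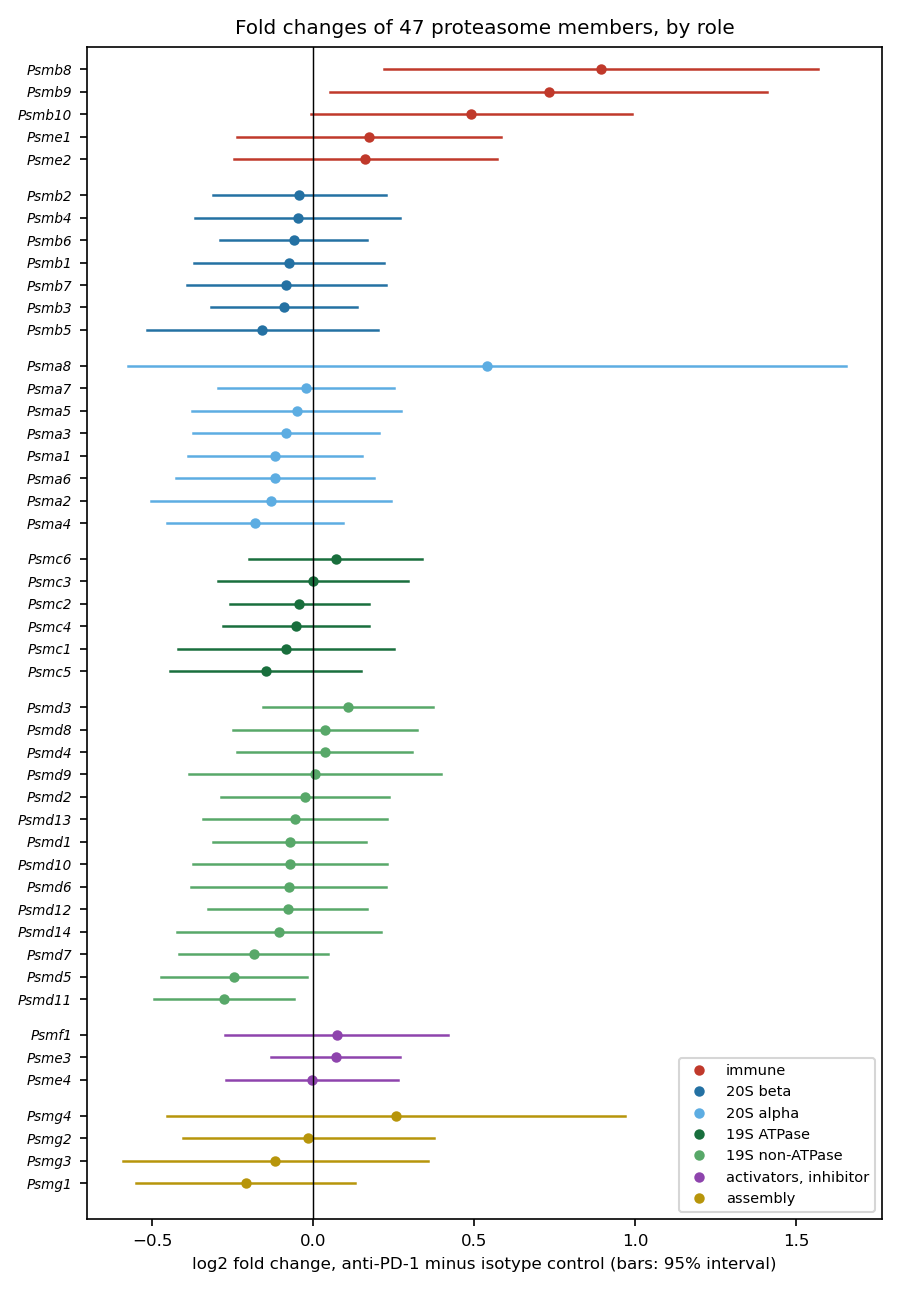
Log2 fold change of each of the 47 members (anti-PD-1 minus isotype control, on the log2(value + 0.5 unit) scale), grouped by role, with 95% intervals from limma. Psmb8 (0.89) and Psmb9 (0.73) have intervals above 0, Psmd11 (-0.28) and Psmd5 (-0.25) below 0, and the remaining intervals cross 0.

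Taking the 42 standard members together, 33 had negative log2 fold changes, against 49.5% of all genes tested, and the median was -0.07. They lay close to each other: 39 of the 42 (92.9%) were within 0.25 of 0, as were 66.3% of all genes tested. Those outside were Psmd11 and the low-valued Psma8 and Psmg4, and abundance was not matched in this comparison. Groups did not overlap for 1 member higher and 3 lower after anti-PD-1, against 7.13% and 9.98% of all genes tested, and 0 of 42 passed after adjustment by limma, edgeR or DESeq2. Unadjusted, limma and edgeR placed Psmd11 and Psmd5 lower and DESeq2 placed Psmd11 alone. All 47 members reached 1 unit in at least 3 libraries, so none was lost to the filter, and Psma8 was the least abundant.

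The lean of the standard members moved with 1 control mouse. Isotype control replicate 3 had the highest value for 28 of the 42, where 15.8% of all genes tested were highest in it. Its mean deviation from the 6-library mean was 0.16 on the log2 scale, beside -0.09, -0.05 and 0.07 in the treated mice and 0.02 and -0.11 in the remaining controls. Without that library 20 of the 42 were negative and the median was 0.0015. For the inducible set the same mouse was below average (mean deviation -0.32, beside -0.05 and -0.36 in isotype control replicates 1 and 2).

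The inducible set minus the standard members, each as mean deviation on the log2 scale, stood at 0.79, -0.07 and 0.08 in treated mice 1 to 3 and at -0.08, -0.25 and -0.48 in isotype controls. Anti-PD-1 replicate 2 and isotype control replicate 1 were nearly level. The difference between group means was 0.54, and 0.28 to 0.70 with single libraries omitted, the lowest when anti-PD-1 replicate 1 was omitted.

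**Figure D4:**
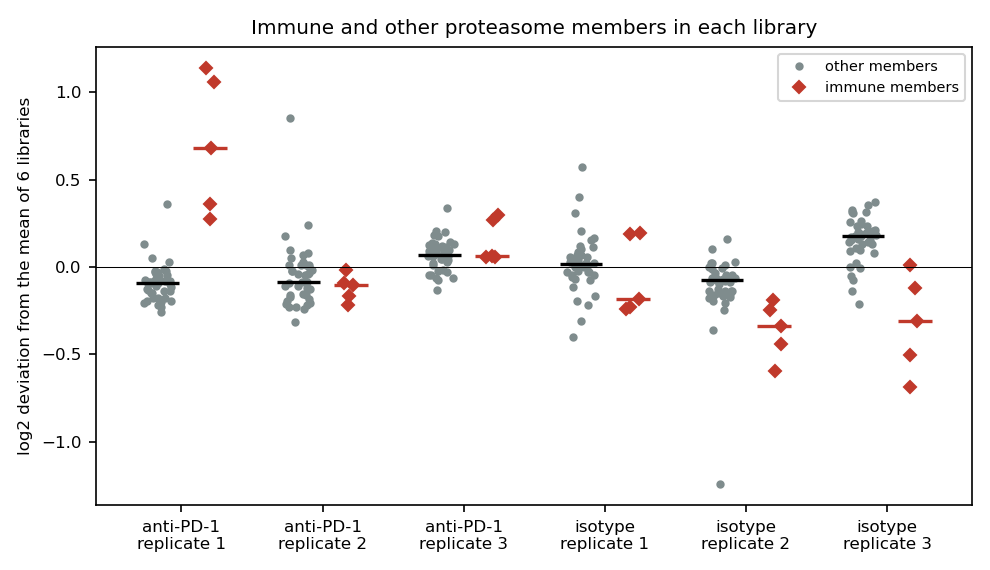
Deviation of each member from its mean over the 6 libraries, on the log2(value + 0.5 unit) scale, for the 42 standard members (grey, "other members" in the legend, black line at the median) and the 5 inducible members (red, "immune members", line at the median) in each library. The inducible members spread upwards in anti-PD-1 replicate 1, and isotype control replicate 3 has 28 of the highest standard values.

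Genes that work with the proteasome but carry other symbols had differences in both directions. Of 18 measured parts and partners, among them the maturation factor Pomp, the ubiquitin receptor Adrm1 and the segregase Vcp, 7 had positive and 11 negative log2 fold changes (median -0.04), and 0 passed by limma, edgeR or DESeq2 (0 at a limma unadjusted p under 0.05). Uchl5, a deubiquitinase of the cap, was at 9.03, 7.72 and 10.1 units in treated mice and 11.0, 9.04 and 14.1 units in controls. Akirin2, which brings proteasomes into the nucleus, was lower in each treated mouse, at 11.5, 11.8 and 12.5 units, than in controls, at 14.2, 12.6 and 14.7. Ubqln4, a shuttle for tagged proteins, was at 22.7, 24.6 and 25.1 units in treated mice and 28.8, 26.8 and 25.2 in controls. In the list, groups did not overlap for 3 of 18 genes lower and 0 higher, against 9.98% and 7.13% of all genes tested.

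Of 7 regulators of proteasome genes, 2 had positive and 5 negative log2 fold changes (median -0.07), and 0 passed by limma or edgeR (2 lower at a limma unadjusted p under 0.05). Nfe2l1, the factor that raises proteasome genes when proteasomes are inhibited, was at 105.0, 91.4 and 78.3 units after anti-PD-1, against 125.4, 120.8 and 113.0 in isotype controls. Its log2 fold change was -0.39 (95% interval -0.68 to -0.11, limma adjusted p = 0.324). Nfe2l2, the related NRF2 of the oxidative stress response, was at 58.7, 47.3 and 34.7 units after anti-PD-1 and 123.4, 84.5 and 72.5 in isotype controls. Its log2 fold change was -0.98 (95% interval -1.54 to -0.43), with an adjusted p of 0.255 by limma, 0.0385 with the replicate block and 0.0145 by DESeq2, and a range up to 0.681 over all settings. Both genes were lower in each treated mouse than in any control, the only 2 of the 7 with this pattern (9.98% of all genes tested). Bach1, a repressor at antioxidant elements, was at 95.6, 169.8 and 174.7 units in treated mice and 53.0, 97.5 and 118.8 in controls, with overlap (limma adjusted p = 0.461). The treated mouse was higher in 3 of 3 same-numbered comparisons, which the labels do not give as pairs. With the replicate block the limma adjusted p was 0.0622 (range over settings 0.0622 to 0.739).

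Of 7 ubiquitin and ubiquitin-activating genes 4 had positive and 3 negative log2 fold changes, and 0 passed by limma, edgeR or DESeq2 (1 lower at a limma unadjusted p under 0.05). Ubb, a polyubiquitin gene, was higher in each treated mouse, at 348.6, 311.6 and 321.5 units, than in controls, at 266.2, 295.9 and 291.5. It was the only 1 of the 7 with this pattern, which was seen in 7.13% of all genes tested. The E1 enzyme Uba6 was at 18.7, 13.8 and 14.2 units in treated mice and 26.5, 20.9 and 18.2 in controls. Uba7, the E1 enzyme of the ubiquitin-like ISG15, was at 29.6, 18.4 and 16.6 units in treated mice and 17.97, 14.8 and 8.999 in controls. The lowest limma adjusted p of the 3 was 0.392, for Uba6.

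The list for class I peptide loading held 13 genes, 1 of them the class I transactivator Nlrc5. Of the 13, 11 had positive log2 fold changes (median 0.27), and 0 passed by limma, edgeR or DESeq2. At a limma unadjusted p under 0.05, 4 were higher, Nlrc5 among them. Tap1, the neighbour of Psmb9, was at 74.5, 35.2 and 36.9 units after anti-PD-1 and 30.5, 23.7 and 19.5 in isotype controls (log2 fold change 0.91, limma adjusted p = 0.34). Omitting anti-PD-1 replicate 1, the library with the high leukocyte markers, gave 0.57, and 8 of the 13 genes were highest in it. H2-D1, a class I heavy chain, was at 677.9, 574.3 and 545.4 units in treated mice and 508.9, 413.4 and 383.1 in controls. The peptide trimmer Erap1 was at 161.7, 144.7 and 170.9 units in treated mice and 134.5, 131.5 and 128.1 in controls. In all 3 genes, named for their small p, each treated mouse lay above each control. This pattern was seen in 5 of the 13 genes of the list and in 7.13% of all genes tested.

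Among interferon-gamma signalling genes, 7 of 9 tested had positive log2 fold changes (median 0.25), and 0 passed by limma, edgeR or DESeq2 (1 higher at a limma unadjusted p under 0.05). Anti-PD-1 replicate 1 held the highest value for 7 of the 9. Omitting that library gave negative log2 fold changes for Ifngr2, Jak2, Irf1 (the lowest, -0.32), Irf9 and Ciita, and positive ones for the rest. The kinase gene Jak1 was at 184.0, 185.6 and 194.3 units in treated mice and 173.2, 157.2 and 164.7 in controls, without overlap. Such separation, with treated values higher, was seen in 2 of the 9 and in 7.13% of all genes tested. Irf8, a factor of myeloid cells, was at 37.0, 13.9 and 15.5 units in treated mice and 14.1, 12.2 and 10.6 in controls, with overlap. Ifng itself did not pass the filter, at 0.72, 0.07 and 0 units after anti-PD-1 and 0.05, 0.11 and 0.05 in isotype controls.

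**Figure D5:**
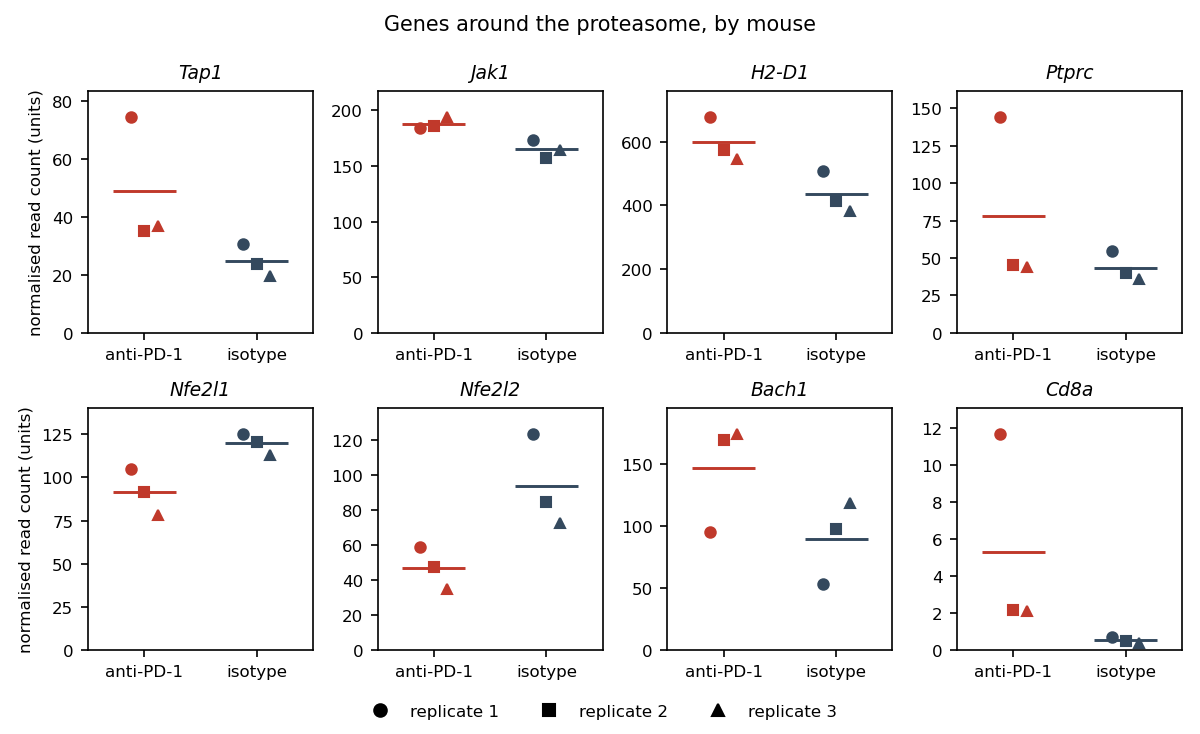
Normalised read counts (units, linear axes from 0) of genes around the proteasome, with each symbol a mouse, anti-PD-1 left of isotype control, and bars at group means. Tap1, Jak1, H2-D1 and Cd8a lie above the controls in all 3 treated mice and Nfe2l1 and Nfe2l2 below them. Ptprc, the pan-leukocyte marker CD45, overlaps between groups apart from anti-PD-1 replicate 1 at 144.4 units.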

How the data were processed

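RNA of whole liver was sequenced after ribosomal RNA depletion with a directional kit, per the labels' protocols. Per the submitters' processing notes, Trimmomatic 0.38, RSEM 1.3.0, Bowtie2 and edgeR were used with GRCm39, with no roles given. The authors deposited a normalised signal, 1 value per gene and library. Dividing each column by its smallest step gave whole reads for 100% of values, to within 0.001 read. Factors implied by the deposited columns matched recomputed TMM factors, so the scale is CPM of a TMM-scaled library. Whether the counts are observed or rounded estimated reads is not known. Groups came from titles; in the treatment field the number after PD differs among the treated mice, while titles and design name PD-1 for all.

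Symbols matched 21407 of 21512 identifiers. Genes reaching 1 unit in 3 or more libraries were tested with limma 3.58.1 (trend, two-sided) on log2(value + 0.5 unit) in R 4.3.3, with Benjamini-Hochberg adjustment over all genes tested and a threshold of 0.05. Such fold changes understate those of low genes. Alternatives changed the pseudocount, filter, scaling, limma settings and block, left out each library, and used edgeR 4.0.16 or DESeq2 1.42.0 on recovered reads. Copies were sought with BLAST 2.17.0 (at least 90% identity over 300 bases): 15 members had one, and the largest share was Psme2b, with 2.82% of the reads of Psme2.

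The members and lists were chosen with earlier results of these data known. Named in full are the 5 inducible members, the partners Psmb5, Psmb6 and Psmb7, Psme3, Psme4, and the 3 other members of smallest p in each direction, plus 3 genes of smallest p per list, of which 1 is not reported here. Ptprc, Cd8a and Cd163 are outside this rule and were chosen after their values were seen, as were the gene with the highest level per kilobase and the extremes of each role.

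The labels number replicates 1 to 3 in both groups and do not say that a number marks a shared cage or day. The correlation of deviations between same-numbered mice was 0.15, 0.13 and 0.25, and between other mice of the 2 groups -0.22 to 0.06. All same-numbered values exceed 0.1, the rule for treating the numbers as a possible pairing. These correlations come from the values that are tested, and deviations within a group of 3 sum to 0, so they cannot establish pairs. The main test is therefore unpaired, and the replicate block is run only as an alternative.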

Additional observations from a re-analysis of the deposited data

How the results depend on the processing

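No member passed the threshold in the main test or in any of the 18 alternatives. The counts that moved by over 1.5 times were those of genes called, of standard members without overlap, and of standard members with a negative log2 fold change. The count of genes called, 1 in the main test, was 261 with DESeq2, 0 with edgeR, 40 with the replicate block and 0 to 30 when each library was left out (30 when anti-PD-1 replicate 1 was omitted, 2 for isotype control replicate 2, and 0 for anti-PD-1 replicate 3). The count of standard members without overlap, 4, was 8 with quantile normalisation and 4 to 12 with a library left out (12 on omitting anti-PD-1 replicate 3, 10 on omitting isotype control replicate 2). Negative standard members, 33 in the main test, numbered 20 on omitting isotype control replicate 3 and 37 on omitting anti-PD-1 replicate 3. Inducible members without overlap, 2 in the main test, numbered 2 or 3. The block ended or made no call of a member, and made those of Nfe2l2 and Cd163.

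The median of the inducible members was 0.27 to 0.72 and that of the standard members -0.13 to 0.0015 with a library left out. Of 16 named members, 278 of 286 values under alternatives kept their direction. Psme4 turned to 0.014 with DESeq2, 0.0077 with edgeR and 0.0065 with median-of-ratios scaling, and ranged from -0.053 to 0.098 with a library left out (0.032 without isotype control replicate 1). Psme2 ranged from -0.02 to 0.30, Psmb6 from -0.12 to 0.0035 and Psmb7 from -0.19 to 0.013. The cause was not tested.

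With 3 mice a group, exact tests cannot go under 0.1. Psma8 had 5 to 42 reads per library.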
